A study of Mus musculus with 12 samples.

Results

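Integrins are surface receptors made of 1 alpha and 1 beta subunit, and 10 integrin subunit genes were followed in PreMegEs, the bone marrow progenitors from which the megakaryocyte and erythroid lineages arise. The 10 genes were Itga2b, Itgb3, Itga2, Itga4, Itga6, Itgal, Itgb1, Itgb2, Itgb6 and Itgb7, found by gene name among the 41128 genes of the count table, and all 10 passed the filter on low counts in every comparison. They were 10 of 27 integrin subunit genes looked up in the table.

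RNA-Seq was carried out on poly(A) RNA from 4 groups of PreMegEs of C57BL/6 mice aged 12 to 16 weeks, with 3 libraries per group and 3 mice pooled per library. WT PreMegEs came from WT mice. P2- and P2+ PreMegEs came from Runx1 P1-GFP::P2-hCD4/+ reporter mice, in which GFP reports the distal promoter P1 of Runx1 and hCD4 the proximal promoter P2. Both fractions were P1+, and they were separated by the hCD4 reporter. KO PreMegEs came from RUNX1C knockout mice, which lack the isoform made from P1. The cells were sorted as lineage negative, Sca1 negative, cKit positive, CD16/32 negative, CD41 negative and CD150 positive cells, with Endoglin used to set them apart from the neighbouring progenitors. The sort therefore read the protein of 1 of the 10 genes, since CD41 is the product of Itga2b, and the lineage antibodies read CD11b, the product of Itgam. The reporter allele was carried by the P2- and P2+ mice and not by the WT mice, so its effect and that of the sorted fraction cannot be told apart in comparisons with WT. Likewise, KO PreMegEs differed from P2- and P2+ PreMegEs both in genotype and in the sort by hCD4, which cannot be told apart either. The paper's RNA-Seq results cover WT, P2- and P2+ PreMegEs and not KO PreMegEs. Nothing in the sources says whether the KO libraries were prepared with the others. Any difference in preparation therefore cannot be told apart from genotype in the KO comparisons, that with WT included. RNA was measured in sorted pools, in which a larger share of expressing cells and more RNA per cell cannot be told apart.

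Total counts per library were between 10726098 and 14445026 (median 12284879), so a count of 3 corresponded to between 0.208 and 0.28 CPM, a scale on which each library's counts are divided by its effective total. Counts of Runx1, the targeted gene, were 370 ± 16.1 CPM (SD, n = 3) in WT, 209.9 ± 7.83 in P2-, 632 ± 23.6 in P2+ and 360.0 ± 20.9 in KO libraries. The counts are per gene and cover the transcripts of both promoters, so they do not check the loss of RUNX1C. Transcripts of the gate (among them Kit and Slamf1) and of the lineage (among them Gata1 and Gata2) were detected in all 4 groups. Of the T cell markers, Cd3g and Cd8a were at 0 counts in every library. Cd3e reached 7 counts in WT and Cd5 9 counts in P2+ libraries. Mean Cd4 was 0.588 CPM in WT, 0.802 in P2-, 1.60 in KO and 2.48 in P2+ libraries. Markers of other lineages are given beside the results. Summed CPM of 10 immediate early genes reached 13040 in P2- replicate 2 and 8908 in P2+ replicate 2, against 167 to 1245 in the other 10 libraries, and the numbers of members called are also given without them.

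The alpha subunit of an integrin largely sets the ligand and the beta subunit links the receptor to the cytoskeleton through talin and kindlin. Itga2b and Itgb3 encode the fibrinogen receptor of megakaryocytes and platelets. Itga2 and Itga6 pair with Itgb1 in receptors for collagen and laminin, Itga4 pairs with Itgb1 or Itgb7 in receptors for VCAM1, fibronectin and MAdCAM1, and Itgal pairs with Itgb2 in the leukocyte receptor for ICAMs. Itgb6 pairs with Itgav and is best known from epithelia, where the receptor activates TGF-beta.

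Start site windows of 300 bases, 250 before the annotated start and 50 from it, were read from RefSeq on build GRCm38.p6 for 6 of the 10 genes (Itga2b, Itga2, Itga4, Itgb1, Itgb6 and Itgb7). The windows of Itga2b, Itga4 and Itgb7 are shown because Itga2b carried the most RNA per length among the members with a difference of 2-fold or more between P2+ and P2- PreMegEs, while Itga4 and Itgb7 were the only members that were lower. They lie on the minus strand at chr11:102469834-102470133, on the plus strand at chr2:79255176-79255475 and on the minus strand at chr15:102231886-102232185. Capitals mark matches, on either strand, to the letters of a RUNX motif (TGTGGT or TGCGGT) or an Ets motif (AGGAAG or CGGAAG).
Itga2b: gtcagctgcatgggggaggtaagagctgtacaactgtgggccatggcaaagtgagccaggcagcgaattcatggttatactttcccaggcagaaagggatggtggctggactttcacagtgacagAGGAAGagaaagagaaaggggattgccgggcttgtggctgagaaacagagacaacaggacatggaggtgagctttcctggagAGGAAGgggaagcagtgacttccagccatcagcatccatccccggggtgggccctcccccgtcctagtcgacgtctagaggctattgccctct
Itga4: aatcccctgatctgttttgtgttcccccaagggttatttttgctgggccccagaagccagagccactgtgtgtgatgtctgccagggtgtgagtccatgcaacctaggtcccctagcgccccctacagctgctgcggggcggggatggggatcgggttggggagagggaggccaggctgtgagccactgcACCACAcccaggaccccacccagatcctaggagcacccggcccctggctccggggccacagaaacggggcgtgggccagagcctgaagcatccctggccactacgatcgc
Itgb7: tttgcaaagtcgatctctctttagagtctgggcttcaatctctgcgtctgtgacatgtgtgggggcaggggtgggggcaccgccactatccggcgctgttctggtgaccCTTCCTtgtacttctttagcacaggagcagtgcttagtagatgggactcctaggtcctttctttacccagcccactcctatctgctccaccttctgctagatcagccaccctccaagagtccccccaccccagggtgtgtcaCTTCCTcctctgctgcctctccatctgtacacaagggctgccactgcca
The Itga2b window held the Ets letters at -125 and -43 from the start, the Itgb7 window held them on the other strand at -141 and 2, and the Itga4 window held the RUNX letters on the other strand at -60. No window of the 6 genes held the GATA letters AGATAA or TGATAA. Of all 32851 windows, 22.4% held the RUNX letters, 18.6% the GATA letters and 46.5% the Ets letters. A match is a description of the letters and not a bound site.

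Between P2+ and P2- PreMegEs, 9 of the 10 genes differed, and their libraries did not overlap. Of these, 7 were higher in P2+ PreMegEs and 2, Itga4 and Itgb7, were lower. Of the 12836 genes tested in this comparison, 37.1% were called (20.1% higher and 17.0% lower) and 49.9% had libraries that did not overlap. Called means an adjusted p under 0.05 in edgeR's quasi-likelihood F-test, with Benjamini-Hochberg adjustment over all genes tested. The median size of the log2 fold change was 0.94 over the 10 genes and 0.31 over all genes tested. Itga2b, Itgb3, Itga2 and Itgb6 were called with a difference of 2-fold or more, as were 12.7% of all genes tested. Itgb6 passed the filter on low counts through the P2+ libraries alone, and of the other 9 genes 8 were called and 3 with 2-fold or more. Without P2- replicate 2 and P2+ replicate 2, the log2 fold change was 2.54 for Itga2b, 3.41 for Itgb3, 1.76 for Itga2, -0.92 for Itga4 and -0.88 for Itgb7. In that fit 8 of the members were called, since Itgb6 was not tested. Without P2+ replicate 2, 10 members were called against WT and 9 between KO and P2+ PreMegEs, and without P2- replicate 2, 3 were called against WT and 3 between KO and P2- PreMegEs.

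**Figure D1:**
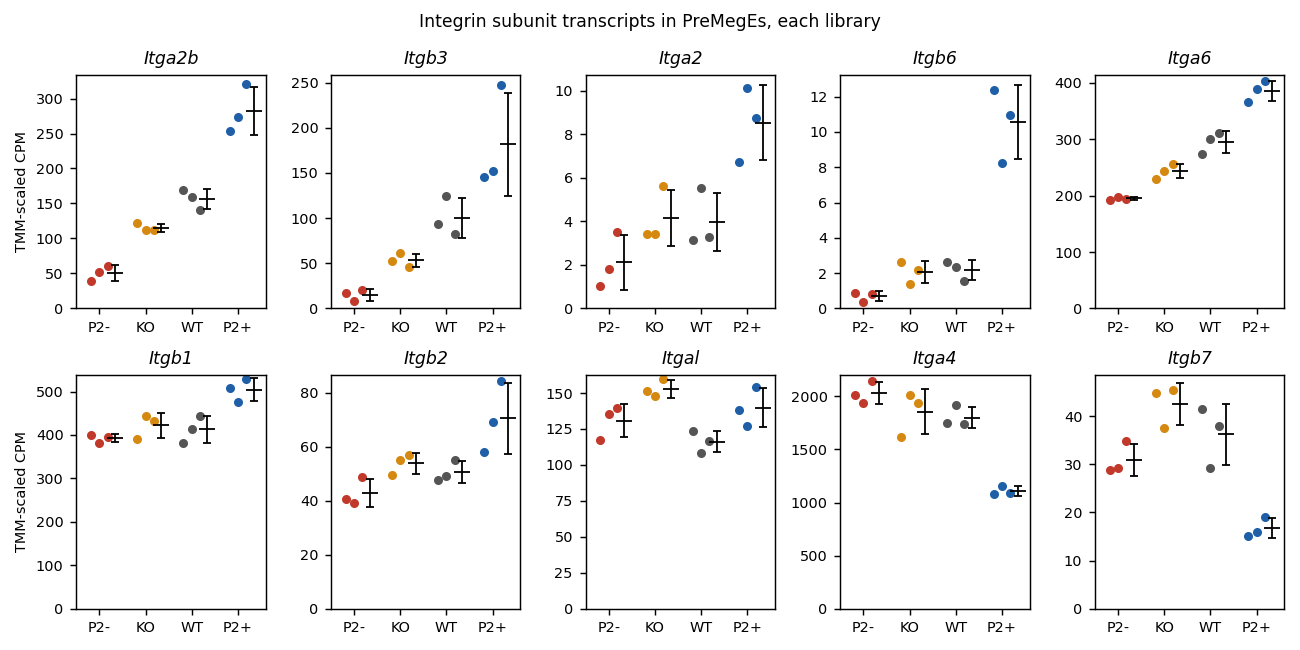
Expression of the 10 integrin subunit genes in each library, as CPM after TMM scaling (vertical axis, from 0), for P2-, KO, WT and P2+ PreMegEs; points are libraries and bars the mean and SD of 3 libraries. Itga2b rose from 50.7 CPM in P2- to 115 in KO, 156 in WT and 283 in P2+ PreMegEs, while Itga4 and Itgb7 were lowest in P2+ PreMegEs.

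Itga2b (ENSMUSG00000034664, chr11:102453297-102470122, minus strand, GRCm38), which encodes the alpha subunit CD41, was detected in every library of these CD41-negative sorts. Its levels were 38.6, 52.3 and 61.3 CPM in P2-, 122, 112 and 112 in KO, 169, 159.6 and 140.1 in WT, and 253, 274 and 320.2 in P2+ libraries. The 4 groups did not overlap, in the order P2-, KO, WT and P2+. Expression was 5.58-fold higher in P2+ than in P2- PreMegEs (log2 fold change 2.48 ± 0.17 SE, adjusted p = 1.215e-05 in edgeR). Against WT, it was 1.81-fold higher in P2+ (log2 0.86 ± 0.11, adjusted p = 0.000447) and 3.05-fold lower in P2- PreMegEs (log2 -1.61 ± 0.15, adjusted p = 9.417e-05). On a scale running between the P2- and P2+ means, Itga2b stood at 45.6% in WT and at 27.8% in KO PreMegEs.

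Itgb3 (ENSMUSG00000020689, chr11:104608000-104670476, plus strand) encodes CD61, the beta partner of CD41 that is not part of the gate. Its levels were 17.4, 7.72 and 19.9 CPM in P2-, 52.9, 60.9 and 46.1 in KO, 93.2, 125 and 82.4 in WT, and 145, 153 and 247 in P2+ libraries. The groups stood in the same order as for Itga2b, again without overlap, and P2- replicate 2 was the lowest library and P2+ replicate 3 the highest. Expression was 12.0-fold higher in P2+ than in P2- PreMegEs (log2 3.59 ± 0.33, adjusted p = 6.459e-05). It was 6.53-fold lower in P2- than in WT PreMegEs (log2 -2.71 ± 0.27, adjusted p = 0.000147), and 1.82-fold higher in P2+ than in WT PreMegEs (log2 0.87 ± 0.20, adjusted p = 0.0161). The last call was lost without WT replicate 1 (adjusted p = 0.0714) or without WT replicate 3 (adjusted p = 0.0717).

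Itga2 (ENSMUSG00000015533, chr13:114833081-114932100, minus strand), the alpha subunit of the platelet collagen receptor, was expressed at a low level. It had 1.03, 1.81 and 3.51 CPM in P2-, 3.40, 3.43 and 5.64 in KO, 3.12, 5.51 and 3.28 in WT, and 6.70, 10.1 and 8.76 in P2+ libraries. Only the P2+ libraries stood above all the others, and those of the other 3 groups overlapped. The difference of P2+ from P2- PreMegEs was 3.98-fold (log2 1.99 ± 0.40, adjusted p = 0.00449) and that from WT PreMegEs 2.17-fold (log2 1.12 ± 0.29, adjusted p = 0.0239). Without P2- replicate 3, the highest P2- library, the difference from P2- was 6.04-fold (log2 2.59). The call against WT was lost without WT replicate 1 (adjusted p = 0.0911), WT replicate 3 (0.0849) or P2+ replicate 3 (0.0590).

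Itgb6 (ENSMUSG00000026971, chr2:60598292-60722643, minus strand) was the member with the fewest counts in P2- libraries and the widest fold. It was counted 11, 4 and 12 times in the P2- libraries, which is 0.875, 0.381 and 0.843 CPM. KO libraries had 2.62, 1.37 and 2.18 CPM, WT libraries 2.64, 2.37 and 1.53 CPM, and P2+ libraries 12.4, 8.26 and 10.97 CPM. P2- libraries were thus below and P2+ libraries above all others, while KO and WT libraries overlapped. Expression was 14.6-fold higher in P2+ than in P2- PreMegEs (log2 3.87 ± 0.33, adjusted p = 4.424e-05) and 4.83-fold higher than in WT PreMegEs (log2 2.27 ± 0.28, adjusted p = 0.000478). On the scale between the P2- and P2+ means, Itgb6 stood at 15.1% in WT PreMegEs, against 51.1% for Itgb3, a contrast that was not tested. Itgb6 was under 1 CPM in every P2- library, so in each comparison with P2- PreMegEs it passed the filter on low counts through the other group alone.

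Itga6 (ENSMUSG00000027111, chr2:71745616-71858416, plus strand), a laminin receptor subunit, varied little within groups, with an SD of at most 6.52% of the group mean. Its levels were 193, 198 and 194 CPM in P2-, 230.2, 244 and 256 in KO, 273, 299.8 and 311 in WT, and 367, 388 and 403 in P2+ libraries. The groups were ordered as for Itga2b and Itgb3 and did not overlap. Expression was 1.98-fold higher in P2+ than in P2- PreMegEs (log2 0.99 ± 0.07, adjusted p = 1.702e-05), 1.31-fold higher in P2+ than in WT (adjusted p = 0.00700) and 1.499-fold lower in P2- than in WT PreMegEs (adjusted p = 0.000818).

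Itgb1 (ENSMUSG00000025809, chr8:128685654-128733200, plus strand), the shared beta subunit, differed little between the groups. It had 393 ± 9.67 CPM (SD, n = 3) in P2-, 413 ± 31.3 in WT, 422 ± 28.6 in KO and 504 ± 26.7 in P2+ libraries. P2+ libraries, at 476 to 528 CPM, were above all the others, which lay between 382 and 445 CPM. The differences of P2+ PreMegEs were 1.29-fold from P2- (log2 0.36 ± 0.07, adjusted p = 0.00460) and 1.22-fold from WT PreMegEs (log2 0.29 ± 0.08, adjusted p = 0.0291). With edgeR's exact test both calls were lost (adjusted p = 0.0634 and 0.140), and the call against WT was also lost without WT replicate 1 (0.130), WT replicate 2 (0.0923), P2+ replicate 1 (0.0721) or P2+ replicate 3 (0.0975).

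Itgb2 (ENSMUSG00000000290, chr10:77530252-77565708, plus strand), the beta subunit of the leukocyte integrins, had 42.9 ± 5.05 CPM in P2-, 50.7 ± 4.01 in WT, 53.9 ± 3.78 in KO and 70.5 ± 13.2 in P2+ libraries (SD, n = 3 each). Its lowest P2+ library, at 57.9 CPM, was close to the highest KO library, at 56.9 CPM. Expression in P2+ PreMegEs was 1.65-fold that in P2- (log2 0.72 ± 0.15, adjusted p = 0.00494) and 1.40-fold that in WT PreMegEs (log2 0.48 ± 0.13, adjusted p = 0.0279). The call against WT was lost without WT replicate 1 (adjusted p = 0.107), WT replicate 2 (0.0981) or P2+ replicate 3 (0.0934).

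Its alpha partner Itgal (ENSMUSG00000030830, chr7:127296260-127335138, plus strand) was the member not called between P2+ and P2- PreMegEs. Levels were 118, 135 and 139 CPM in P2- and 138, 127 and 154 in P2+ libraries, so the groups overlapped. The log2 fold change was 0.10 (95% interval -0.12 to 0.33, adjusted p = 0.463). WT libraries, at 109 to 124 CPM, lay below the P2+ libraries, but this difference was not called either (log2 0.27, 95% interval 0.07 to 0.47, adjusted p = 0.0650). It was called by DESeq2 (adjusted p = 0.0406), in the fit over all 12 libraries (0.0470) and without P2+ replicate 2 (0.0176).

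Itga4 and Itgb7, whose products form the gut homing receptor of lymphocytes, moved the other way. Itga4 (ENSMUSG00000027009, chr2:79255426-79333123, plus strand) had the highest counts of the members, with 2009, 1938 and 2148 CPM in P2-, 1616, 2013 and 1934 in KO, 1748, 1918 and 1737 in WT, and 1080.0, 1158 and 1087 in P2+ libraries. P2+ libraries stood apart below, and the other 3 groups lay close together. Expression was 1.83-fold lower in P2+ than in P2- PreMegEs (log2 -0.87 ± 0.06, adjusted p = 1.591e-05) and 1.62-fold lower than in WT PreMegEs (log2 -0.69 ± 0.06, adjusted p = 4.054e-05). Itga4 shares 1124 exonic bases with Cerkl on the other strand, whose group means were at most 6.53 CPM.

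Itgb7 (ENSMUSG00000001281, chr15:102215995-102231944, minus strand) had 28.9, 29.3 and 34.8 CPM in P2-, 44.8, 37.6 and 45.4 in KO, 41.4, 29.2 and 38.0 in WT, and 15.1, 16.0 and 19.1 in P2+ libraries. The P2+ libraries were again the lowest. Expression was 1.85-fold lower in P2+ than in P2- (log2 -0.88 ± 0.14, adjusted p = 0.00137) and 2.16-fold lower than in WT PreMegEs (log2 -1.11 ± 0.16, adjusted p = 0.00108). Summed markers of other cell types were measured in the same libraries. Summed mast cell and basophil markers (8 genes) were 31.6 to 37.3 CPM in P2-, 31.0 to 55.3 in WT, 54.3 to 74.9 in KO and 100.4 to 157 in P2+ libraries. They were carried by Ms4a2 (9.15 CPM in P2- and 70.7 in P2+), Cpa3 (16.6 and 39.1) and Hdc (8.27 and 16.9), with Cma1 at 0 and Mcpt8 at 5 counts or fewer in every library. Summed lymphoid markers (10 genes) were 107 to 142 CPM in P2-, 137 to 146 in KO, 211 to 303 in P2+ and 266 to 293 in WT libraries, with Nkg7 the highest of them and Cd3g at 0. The part of these cells in the differences of Itga4 and Itgb7 was not tested. Summed neutrophil and monocyte markers (10 genes) were 59.5 to 114 CPM in P2-, 79.4 to 127 in KO, 174 to 305 in WT and 299 to 438 in P2+ libraries. The sums of P2+ and WT libraries overlapped, and those of KO libraries lay below those of WT libraries. They were carried by Mpo (11.2 CPM in P2-, 80.9 in WT and 104 in P2+) and Lyz2 (42.6, 96.5 and 185), while the means of S100a8 and S100a9 were lower in P2+ than in P2-, and those of Elane, Ctsg and Ly6c2 lower in P2+ than in WT PreMegEs. Ly6g, a granulocyte marker outside this list, had 5 counts or fewer in every library. The part of these cells in the differences of Itgb2 was not tested. Summed markers of maturing megakaryocytes and platelets (10 genes) were 203 to 248 CPM in P2-, 418 to 447 in KO, 425 to 496 in WT and 616 to 904 in P2+ libraries, and those of maturing erythroid cells (10 genes) 2462 to 2919, 2290.0 to 2617, 1497 to 1751 and 640 to 845 CPM. The erythroid sum was carried by Car1 (499.5 CPM in P2- and 11.8 in P2+), Car2 (1187 and 682) and Ermap (900.5 and 22.6), while the means of Hbb-bs (11.7 and 12.3), Hbb-bt (1.96 and 3.67), Slc4a1 (19.4 and 27.3) and Alas2 (1.26 and 2.39) were not lower in P2+. Of the platelet markers, Ppbp and Gp6 were not higher in P2+ by their means. The part of either list in the differences of Itga2b and Itgb3 was not tested.

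Against WT, 9 of the 10 genes were called in P2+ PreMegEs, 7 higher and 2 lower. Of the 12941 genes tested, 16.5% were called (9.45% higher and 7.07% lower). Itgb6, Itga2 and Itgb7 were called with 2-fold or more, as were 3.84% of all genes tested. Without WT replicate 1, 5 of the 10 genes were called, with Itgb3, Itga2, Itgb1 and Itgb2 lost. Libraries of P2+ and WT PreMegEs did not overlap for 10 of the 10 genes, against 35.5% of all genes tested. In P2- PreMegEs, 4 of the 10 genes were called against WT, all lower, where 16.5% of 12767 genes were (6.85% higher and 9.60% lower). Of these 4, 3 were called with 2-fold or more, against 4.68% of all genes tested, and 5 members had libraries that did not overlap, against 34.7%. The 4 genes lower in P2- than in WT PreMegEs were Itga2b, Itgb3, Itga6 and Itgb6. Itgb6 passed the filter on low counts through the WT libraries alone. It counts among the 4, the 3 with 2-fold or more and the 5 without overlap. For Itgb6 the difference was 3.01-fold (log2 -1.59 ± 0.45, adjusted p = 0.0375), and its call was lost without P2- replicate 1 (adjusted p = 0.0642), P2- replicate 2 (0.0697) or P2- replicate 3 (0.0658), and with the replicate number as a block (0.0823). Without a WT library it was not tested under the filter, and with a filter of 2 libraries the call was lost as well (adjusted p between 0.0531 and 0.148). Itga4 was not called (log2 0.19, 95% interval 0.05 to 0.32, adjusted p = 0.0637), and neither was Itgb7 (log2 -0.21, 95% interval -0.53 to 0.10, adjusted p = 0.348). The 2 genes that were lower in P2+ PreMegEs therefore did not pass the test between P2- and WT PreMegEs. P2+ and P2- PreMegEs were both compared with the same WT libraries.

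**Figure D2:**
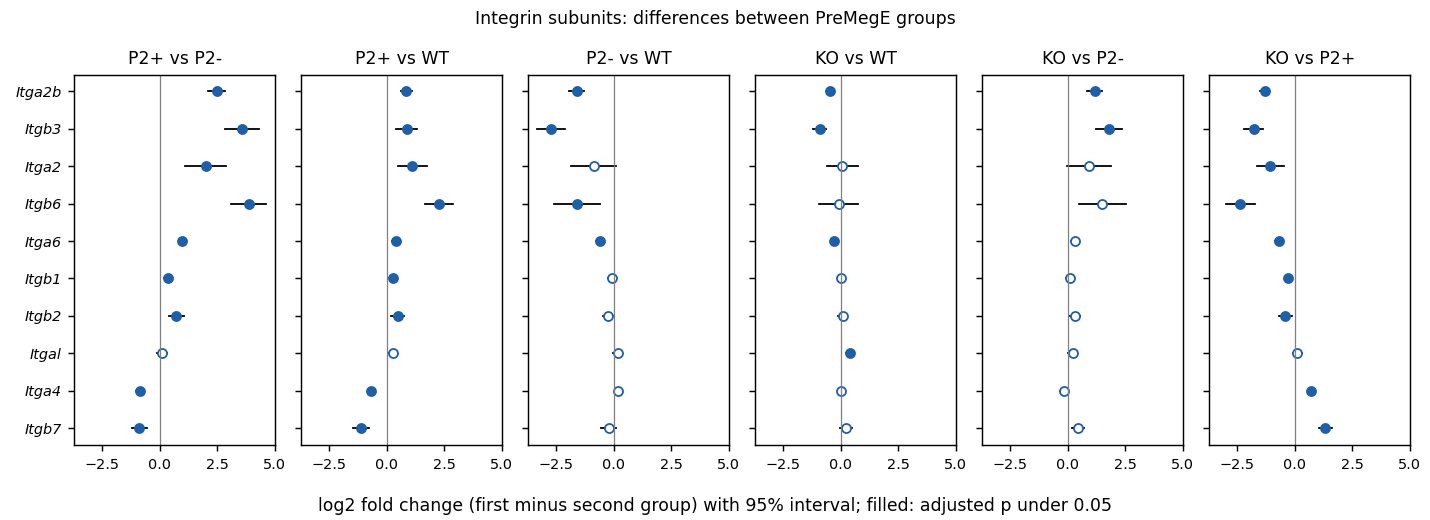
Log2 fold change of each integrin subunit gene (horizontal axis, first minus second group, with 95% intervals) in the 6 comparisons; filled points had an adjusted p under 0.05. Itgb6 and Itgb3 had the widest differences between P2+ and P2- PreMegEs, at 3.87 and 3.59, and between KO and P2- PreMegEs only Itga2b and Itgb3 were called.

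In KO PreMegEs, 4 of the 10 genes were called against WT, 3 lower and 1 higher. Of the 12784 genes tested, 14.9% were called (6.18% higher and 8.76% lower). Itgb3 was 1.88-fold lower (log2 -0.91 ± 0.13, adjusted p = 7.512e-05), Itga2b 1.36-fold lower (log2 -0.45 ± 0.08, adjusted p = 0.000529) and Itga6 1.22-fold lower (log2 -0.28 ± 0.07, adjusted p = 0.00682). Itgal was 1.31-fold higher (log2 0.39 ± 0.07, adjusted p = 0.000788), with 151, 148 and 160.1 CPM in KO libraries. The 4 genes differed by less than 2-fold (3.41% of all genes were called with 2-fold or more), and their libraries did not overlap, which held for 31.6% of all genes tested. The call of Itga2b was lost in the fit over all 12 libraries (adjusted p = 0.0562) and that of Itga6 without KO replicate 1 (0.0510). For the other 6 genes the intervals of the log2 fold change were -0.12 to 0.20 for Itga4, -0.12 to 0.17 for Itgb1, -0.12 to 0.28 for Itgb2, -0.04 to 0.49 for Itgb7, -0.61 to 0.74 for Itga2 and -0.92 to 0.74 for Itgb6. The last 2 genes had the widest intervals, and differences within them were not detectable with these libraries.

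Between KO and P2- PreMegEs, 2 of the 10 genes were called, in a comparison in which 1.61% of 12588 genes were (1.33% higher and 0.278% lower). Itga2b was 2.25-fold higher in KO PreMegEs (log2 1.17 ± 0.14, adjusted p = 0.00386) and Itgb3 3.49-fold higher (log2 1.80 ± 0.26, adjusted p = 0.00836). Both were called with 2-fold or more, as were 0.508% of all genes tested. The call of Itgb3 was lost without KO replicate 1 (adjusted p = 0.0582) or KO replicate 2 (0.0652). Libraries did not overlap for 7 of the 10 genes, against 21.2% of all genes tested. Among the genes not called, Itga6 had a log2 fold change of 0.31 (95% interval 0.16 to 0.46, adjusted p = 0.0530) and was called without the filter (0.0287), by DESeq2 (0.00368), in the fit over all 12 libraries (0.0306) and without P2- replicate 2 (0.0119). Itgb7 had 0.45 (95% interval 0.19 to 0.70, adjusted p = 0.0976) and was called without the filter (0.0431) and by DESeq2 (0.0316). Itgb6 had 1.502 (95% interval 0.48 to 2.53, adjusted p = 0.148) and was called by edgeR's exact test (0.0350).

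Between KO and P2+ PreMegEs, 9 of the 10 genes were called, in a comparison in which 37.1% of 12807 genes were (16.7% higher and 20.3% lower). Their libraries did not overlap, which held for 50.4% of all genes tested. Itga4 was 1.66-fold and Itgb7 2.53-fold higher in KO PreMegEs (adjusted p = 3.502e-05 and 2.919e-05). The 7 genes that were lower were Itgb6 (5.14-fold), Itgb3 (3.44-fold), Itga2b (2.47-fold), Itga2 (2.07-fold), Itga6 (1.60-fold), Itgb2 (1.32-fold) and Itgb1 (1.20-fold). With Itgb7, 5 genes were called with 2-fold or more, against 11.4% of all genes tested. Itgal was not called (log2 0.12, 95% interval -0.07 to 0.31, adjusted p = 0.308). The call of Itga2 was lost without KO replicate 1 (adjusted p = 0.0507) or KO replicate 2 (0.0509), and that of Itgb1 by the exact test (0.0599) and without KO replicate 1 (0.0586). With a filter of 2 libraries, the call of Itgb1 was lost without P2+ replicate 3 (0.0503) or KO replicate 1 (0.0785). That of Itgb2 was lost without any single KO library (adjusted p between 0.0538 and 0.105) and without P2+ replicate 3 (0.0985). These comparisons share their P2+, P2- and WT libraries with those above.

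Levels of different genes were compared as RPKM, counts scaled for exonic length. Among the 5 alpha subunits, Itga4 had the highest RPKM in all groups, but its share of their summed RPKM fell from 74.0% ± 1.48 (SD, n = 3) in P2- to 64.7% ± 2.69 in KO, 61.8% ± 1.27 in WT and 40.5% ± 2.32 in P2+ libraries. Itga2b took 4.71% ± 0.88, 10.4% ± 1.37, 13.8% ± 1.23 and 26.3% ± 1.93 in the same order. Itga6 took 11.01% in P2- and 21.8% in P2+ libraries, and Itgal between 8.51% and 11.4% in all groups. Among the 5 beta subunits, Itgb1 made up 67.1% to 77.6% of the summed RPKM. Itgb3 took 2.03% ± 0.81 in P2-, 6.20% ± 0.85 in KO, 11.5% ± 2.59 in WT and 16.4% ± 3.30 in P2+ libraries, while Itgb7 took 8.99% in P2- and 3.26% in P2+ libraries. The shares are RNA and say nothing of the heterodimers at the surface.

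**Figure D3:**
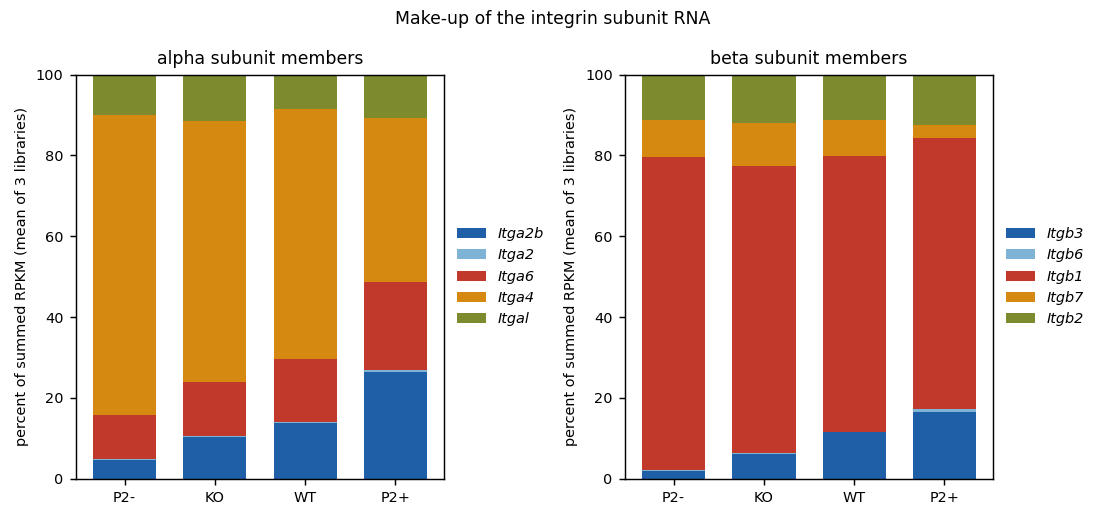
Share of each gene in the summed RPKM (percent, vertical axis) of the 5 alpha (left) and 5 beta subunits (right), as the mean of 3 libraries per group. Itga2b made up 4.71% of the alpha subunit RNA in P2- and 26.3% in P2+ PreMegEs, and Itgb1 the majority of the beta subunit RNA in every group.

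Ratios of alpha to beta RPKM were taken for subunits that pair, as a description without a test. Itga2b exceeded Itgb3 in every library, by 1.71-fold in WT (range 1.38 to 1.97) and 1.72-fold in P2+ (1.40 to 1.94), against 2.35-fold in KO (1.98 to 2.62) and 3.88-fold in P2- libraries (2.40 to 7.33). WT and P2+ libraries thus had like ratios, and the ratios of the KO and P2- libraries were above all of them. The highest ratio was that of P2- replicate 2, which had 81 counts of Itgb3. For Itga4 over Itgb1, the ratio was 1.51 in P2-, 1.28 in KO and 1.27 in WT libraries. It was 0.642 (range 0.601 to 0.711) in P2+ libraries, the group in which the RPKM of Itgb1 exceeded that of Itga4. This crossing rests on the exonic lengths, 13978 bases for Itga4 and 4081 for Itgb1. By CPM, Itga4 exceeded Itgb1 in P2+ libraries as well (means of 1108 and 504). Itga4 over Itgb7 was 13.04 in P2- and 13.2 in P2+ libraries, with 9.95 in WT and 8.62 in KO libraries. The ranges of P2-, P2+ and WT libraries overlapped, and the KO libraries (7.14 to 10.6) lay below those of P2- and P2+. Itga6 over Itgb1 was 0.224 in P2-, 0.261 in KO, 0.322 in WT and 0.346 in P2+ libraries. Itgal over Itgb2 was 1.42 in P2-, 1.32 in KO, 1.07 in WT and 0.929 in P2+ libraries.

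**Figure D4:**
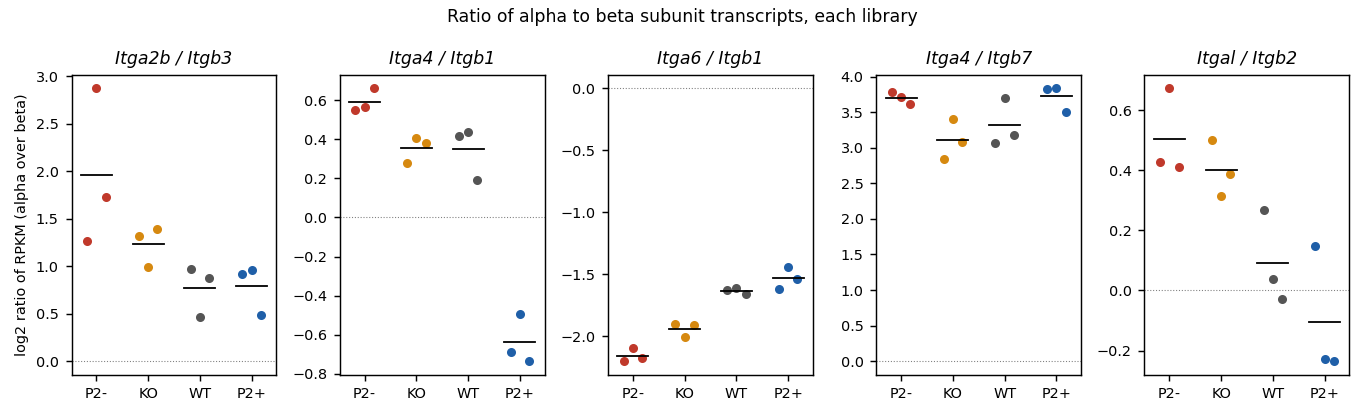
Log2 ratio of the RPKM of an alpha subunit to that of a beta subunit it can pair with (vertical axis, each panel with its own range), for each library by group; horizontal lines are means of 3 libraries and the dotted line marks equal RPKM. The ratio of Itga4 to Itgb1 was above 1 in all P2-, KO and WT libraries and below 1 in all P2+ libraries. Its place above or below 1 depends on the exonic lengths used for RPKM.

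Over the 12 libraries, the genes with log2 CPM most like that of a member were ranked among 13272 genes. The libraries share their group structure, so these correlations describe the pattern over the groups. Those most like Itga2b were Pear1, Plek and Gp9 (Pearson's r = 0.985 each), of which Gp9 is a subunit of the platelet von Willebrand factor receptor. Those most like Itgb3 were Dusp3, Gp1bb and Cd180 (0.987, 0.986 and 0.984), and Gp1bb belongs to the same receptor as Gp9. Gp1bb shares 1902 exonic bases with Sept5 on the same strand, so its counts are uncertain. Syk, Epb4.1l2 and Ccnd3 were most like Itga6 (0.990 each), and Eps8, Chmp2b and Dab2ip most like Itgb6 (0.981 each). Ccpg1, Fermt3 and Ksr1 were most like Itgb2 (0.972, 0.961 and 0.947), and Fermt3 encodes kindlin-3, which activates integrins in blood cells. Rec8, Ces2g and Nfia were most like Itga4 (0.983, 0.981 and 0.976). Idh3g, Actr5 and Acads were most like Itgb7 (0.953, 0.949 and 0.943), Slc16a9, Ssr1 and Rad21 most like Itgb1 (0.952, 0.949 and 0.949), and Rufy4, Cdr2l and Cd274 most like Itga2 (0.948, 0.928 and 0.928). Itgal had the weakest best match, Slamf1, at 0.912, followed by Klhdc8b and Abcc4 (0.882 and 0.866). Among the members, r was 0.951 for Itga2b with Itgb3 and 0.798 for Itga4 with Itgb7, and -0.917 for Itga4 with Itgb6.

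Of the other 17 integrin subunits, 10 had group means under 1 CPM throughout, and 3 had at most 3 counts in every library. Between P2+ and P2- PreMegEs, 6 were tested and 5 were higher in P2+, against 20.1% of all genes tested. Itgb4, 1 of the 5, rose from 0.577 to 2.02 CPM (log2 1.78 ± 0.48, adjusted p = 0.0182), but was under 1 CPM in every P2- library and passed the filter through the P2+ libraries alone. Itga9 rose from 3.91 to 12.7 CPM (log2 1.70 ± 0.26, adjusted p = 0.00118) and Itgam, whose product CD11b was excluded by the gate, from 2.50 to 6.60 CPM (log2 1.41 ± 0.40, adjusted p = 0.0226). Itgav, a partner of Itgb3 and Itgb6, was 0.70 higher on the log2 scale (adjusted p = 0.00502) and Itga5, the fibronectin receptor subunit, 0.49 (adjusted p = 0.0339). The number of these genes called was 2 without P2+ replicate 1 or P2+ replicate 3, and 3 without P2- replicate 3. Itgb4 shares 537 exonic bases with B230344G16Rik and Itgav 634 with Gm13684, both on the other strand, so their counts are uncertain. Itga9 was the subunit called between KO and WT PreMegEs in this list, with 12.0 ± 1.19 CPM in KO and 4.60 ± 1.44 in WT libraries (log2 1.37 ± 0.23, adjusted p = 0.000460). It was also higher in KO than in P2- PreMegEs (log2 1.60 ± 0.21, adjusted p = 0.00479), while Itga2b and Itgb3 were lower in KO than in WT PreMegEs. Between P2- and WT PreMegEs, 0 of 6 were called by edgeR's quasi-likelihood test, 2 had an unadjusted p under 0.05, and 1 was called by the exact test and 1 in the fit over all 12 libraries.

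Of 36 integrin ligands and counter-receptors, 17 were tested between P2+ and P2- PreMegEs, 11 were higher and 2 lower in P2+, against 20.1% and 17.0% of all genes tested. Their median log2 fold change was 1.32, against -0.02 over all genes tested. Jam3, 1 of the 11, passed the filter through the P2+ libraries, and the count and the median include it. The basement membrane collagens Col4a1 (log2 2.96 ± 0.20, adjusted p = 1.366e-05) and Col4a2 (2.37 ± 0.25), the junctional molecules F11r (2.54 ± 0.26) and Jam3 (2.37 ± 0.43), Vwf (2.35 ± 0.30) and Thbs1 (2.24 ± 0.62) had the widest differences. Thbs1 was not called without P2+ replicate 3 (log2 1.56, adjusted p = 0.0815), and the log2 fold change of Jam3 was 3.09 without P2- replicate 3. Vwf and Thbs1 are carried in platelet granules, and Vwf is also in the megakaryocyte marker list. The 2 genes lower in P2+ were Icam2 (-0.49) and Icam4 (-0.53). Between KO and WT PreMegEs, 1 of 17 was higher, Jam3 (log2 1.80 ± 0.49), which passed the filter through the KO libraries, and 5 were lower (14.9% of all genes tested were called), led by Col1a2 (-1.80 ± 0.32). Col1a2 was at 10.7 ± 5.14 CPM in WT and 3.09 ± 1.02 in KO libraries. Col1a1 ranged from 0 to 27.4 CPM across the WT libraries, and the part of other cells in these values was not tested. Between KO and P2- PreMegEs, 2 of 15 were higher, where 1.33% of all genes tested were, with Vwf at 32.0 against 15.4 CPM (log2 1.04 ± 0.19, adjusted p = 0.0240). Without any single KO library, 0 ligands were called in this comparison. Thbs1 shares 208 exonic bases with Gm29233 on the other strand.

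Of 34 activators and adaptors that act next to integrins, 28 were tested between P2+ and P2- PreMegEs, with 12 higher and 3 lower in P2+, against 20.1% and 17.0% of all genes tested. Their median log2 fold change was 0.22, against -0.02 over all genes tested. The small GTPase Rap1b, an activator of integrins in platelets, was at 215 ± 28.3 CPM in P2-, 367 ± 27.7 in KO, 508 ± 58.1 in WT and 991 ± 129 in P2+ libraries. Its difference between P2+ and P2- was 2.211 ± 0.13 on the log2 scale (adjusted p = 6.053e-06), and the order of the groups was that of Itga2b. Mdfic had the widest difference in the list (2.39 ± 0.14), and Sorbs3 (2.01 ± 0.18), Skap2 (1.43 ± 0.12), Lims1 (1.40 ± 0.11) and Zyx (1.39 ± 0.14) came after Rap1b. Talin, Tln1, and kindlin-3, Fermt3, were 0.41 and 0.37 higher on the log2 scale (adjusted p = 0.00208 and 0.0125), and Flna was 0.42 lower. Between KO and WT PreMegEs 3 of 28 were higher and 10 lower, against 14.9% of all genes called (8 in all without KO replicate 3), and Rapgef3, which activates Rap1, was the gene that differed by 2-fold or more (log2 -1.46 ± 0.15). Between KO and P2- PreMegEs 2 of 28 were called, Rap1b (log2 0.76 ± 0.10) and Fyb (0.60 ± 0.11), where 1.61% of all genes were. The number was 7 by DESeq2, 6 without P2- replicate 2, 1 without P2- replicate 1, KO replicate 1 or KO replicate 3, and 0 without KO replicate 2. Tln1, Fermt3, Zyx and Rapgef3 share exonic bases with counted genes on the other strand, and Fyb with 1 on each strand, so their counts are uncertain.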

How the data were processed

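Poly(A) RNA of sorted PreMegEs was sequenced in 12 libraries, 3 per group. The authors made strand-specific libraries, aligned paired reads with Bowtie2 to the mouse genome GRCm38 assigned them to Ensembl genes with featureCounts and deposited counts per gene and library, not normalized. Whether counting used the strand, and how reads with several alignments were counted, is not given in the sources used here.

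Each pair of groups was compared in edgeR 4.0.16 (R 4.3.3) by quasi-likelihood F-test, with group as the only term, after a filter that required 1 CPM or more in 3 libraries, TMM scaling and Benjamini-Hochberg adjustment over all genes tested. The SE was taken from the F statistic and 95% intervals from it. Levels are CPM after TMM scaling over the 12 libraries, and RPKM used union exonic lengths of GENCODE vM21, found for 40254 of 41128 genes. Correlations used log2 CPM with a prior count of 2. The fits were tested on simulated data. Alternatives were median-ratio scaling, no filter, edgeR's exact test, DESeq2 1.42.0, a fit over all 12 libraries, the replicate number as a block, a 2-fold threshold and leaving out libraries. Fits that left out libraries were also run with a filter of 2 libraries, a choice made after the data were seen because Itgb6 was not tested in some of the smaller fits. The genes of other lists named in the text are those called with at least a 2-fold change, at most 6 by size, and others were named after their values were seen. The members and lists were chosen with earlier results of these data known. Total counts, between 10726098 and 14445026 per library, limit the precision of low genes, and limits of 3 counts cover counting error only. Between libraries of a group the counts varied by more than counting error (chi-square per degree of freedom between 4.62 and 35.0). Each library pooled tissue of 3 mice, and nothing in the sources says whether P2+ and P2- fractions of the same number came from the same mice, so p-values measure the spread between these libraries. P2+ and P2- libraries with the same replicate number deviated together (correlations of 0.386, 0.572 and 0.405 across genes). Whether shared mice or shared handling lay behind this was not tested, and the main fits do not pair the libraries. Same-numbered libraries of other groups had correlations between -0.0854 and 0.159 and share only a number. Protein sequences were not used here.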

Additional observations from a re-analysis of the deposited data

How the results depend on the processing

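Of 1090 alternative values of the members' log2 fold changes (without the 2-fold threshold), 1019 kept their direction where called and their side of the threshold, 59 lost the call, 12 gained it and 0 called values changed sign. With a 2-fold threshold, the number of members called was 4 between P2+ and P2-, 3 between P2+ and WT, 0 for KO and WT and 5 for KO and P2+ PreMegEs. At adjusted p under 0.05 with no fold threshold, the number for KO and P2- PreMegEs was 4 without the filter and 4 by DESeq2, and it ranged from 1 to 3 when a library was left out, with 1 without KO replicate 1 or KO replicate 2. For P2+ and WT PreMegEs the number at adjusted p under 0.05 ranged from 5, without WT replicate 1, to 10. The cause was not tested. Leaving out a library gave 8 to 9 members for P2+ against P2-, 3 for P2- against WT, 3 to 4 for KO and WT, and 6 to 9 for KO and P2+ PreMegEs. Without both libraries numbered 2, 8 of the members were called between P2+ and P2- PreMegEs, since Itgb6 was not tested under the filter of 3 libraries. With a filter of 2 libraries, added after the data were seen, 9 were, and Itgb6 had a log2 fold change of 3.76. With the replicate number as a block, 9 members were called for P2+ and P2- PreMegEs, whose same-numbered libraries deviated together. Where libraries share only a number, the block gave 9 members for P2+ against WT, 3 for P2- against WT, 4 for KO against WT, 2 for KO against P2- and 9 for KO against P2+ PreMegEs. Over all genes, the block called 3325 genes higher and 3189 lower in P2+ than in P2- PreMegEs, against 2576 and 2186 without it. The lowest libraries of Itga2 and Itgb6 held 13 and 4 counts, and whether depth or the spread between pools set their errors was not tested. The median of all genes moved by less than 0.1 on the log2 scale between scalings.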
